A study of Mus musculus with 24 samples.

Results

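The 33 genes described here encode the glucose and lactate transporters, the enzymes of glycolysis and the enzymes of the pentose phosphate pathway. They were chosen by symbol, from knowledge of the pathways, but with earlier results of these data already known. All 33 have a row among the 26267 genes of the deposited table. RNA came from sorted bone marrow LSK cells of mice, the fraction without lineage markers and with Sca-1 and Kit on the surface, which holds blood stem cells and early multipotent progenitors. The mice were wild type (WT), knockout for Fancg (FancgKO), a member of the Fanconi anaemia complex that repairs DNA crosslinks, transgenic for the p53 inhibitor Mdm4 (Mdm4Tg), or both (FancgKO_Mdm4Tg). Each genotype received either PBS, the vehicle, or poly(I:C), which mimics viral double-stranded RNA and sets off an interferon response. PBS libraries numbered 4 for WT, 4 for FancgKO, 3 for Mdm4Tg and 3 for FancgKO_Mdm4Tg, and poly(I:C) libraries 3, 3, 2 and 2 in the same order, 24 in all. Strain, age, poly(I:C) dose and timing, the transgene's promoter and any pooling of mice are not given in the sources used here. Nor are the libraries stated to be separate mice, so every p-value below measures only the spread between these samples.

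Glycolysis splits glucose into pyruvate with a net gain of ATP. The lactate dehydrogenases turn pyruvate into lactate, which leaves the cell through monocarboxylate transporters. Inside mitochondria pyruvate dehydrogenase, held back by its kinase Pdk1, turns pyruvate into acetyl-CoA. The pentose phosphate pathway branches off after the first step: its oxidative arm yields NADPH, and its non-oxidative arm makes ribose phosphate for nucleotides and returns sugars to glycolysis. Quiescent blood stem cells are known for relying on glycolysis in their low-oxygen niche, with much of the hypoxic programme driven by HIF-1 through a short DNA core, and they raise mitochondrial metabolism as they divide and differentiate.

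The stretches before the start sites of Ldha and Slc16a1 are printed below. These genes encode a lactate-producing enzyme and a lactate transporter, and both were higher with poly(I:C). The stretches were picked because they hold the most matches to that core of any member's single window, counted on each strand. They are the 250 bases before a RefSeq start (build GRCm38.p6), read 5′ to 3′ on the gene's strand. Capitals mark the HIF core, ACGTG or GCGTG on either strand; the E-box CACGTG, a motif of MYC and related factors, overlaps ACGTG on both strands.
Ldha, chr7:46845554-46845803, plus strand: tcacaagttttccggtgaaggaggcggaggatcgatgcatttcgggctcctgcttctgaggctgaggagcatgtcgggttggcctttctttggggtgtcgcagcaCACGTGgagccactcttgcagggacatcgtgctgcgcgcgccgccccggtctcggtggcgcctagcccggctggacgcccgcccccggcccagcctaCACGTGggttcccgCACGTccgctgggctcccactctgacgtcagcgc
Slc16a1, chr3:104638414-104638663, plus strand: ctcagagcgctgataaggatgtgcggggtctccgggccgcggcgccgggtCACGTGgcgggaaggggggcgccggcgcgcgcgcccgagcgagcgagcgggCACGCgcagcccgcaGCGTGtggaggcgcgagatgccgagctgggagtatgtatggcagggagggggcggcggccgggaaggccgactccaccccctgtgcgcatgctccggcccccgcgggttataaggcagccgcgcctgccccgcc

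The Ldha window held 5 matches and the Slc16a1 window 4, where each CACGTG was counted on both strands. Another Ldha window, not shown, held 1, and Slc16a1 has 1 window. Windows of Pfkp and Pgam1 held 3 matches each, none in a CACGTG, so they have as many separate stretches as the printed windows. Windows were found for 31 of the 32 members that passed the filter on low counts described below, and a gene was scored over all its windows. ACGTG occurred in 12 of these 31 (38.7%), against 25.8% of the 8861 tested genes with a window. GCGTG occurred in 22 (71.0% against 51.1%), and either of the 2 cores in 28 (90.3% against 62.7%). CACGTG occurred in 4 members, Ldha, Slc16a1, Pfkfb3 and Pfkm (12.9% against 10.2%). Base composition was not matched, and a match is a run of letters, not a shown binding site.

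Depth ran from 807686 to 8229715 reads (median 2583130). The 4 deepest, at 5491225 to 8229715 reads, were the poly(I:C) libraries numbered 8. Mdm4 separated the 10 transgenic libraries (normalized count 5023 to 7105) from the other 14 (750.9 to 1293). Fancg counts, 61.5 to 78.4 in WT and 26.1 to 67.1 in FancgKO, overlapped; the table gives 1 total per gene, so reads outside a deleted part cannot be told apart. The gate's genes were present: Kit at 1483 to 2414 and Ly6a, which encodes Sca-1, at only 11.7 to 45.9. Cd34, which is not part of the gate as described, was at 1153 to 2457. Of the markers of mature lineage cells reported here, which the gate should remove, Cd3e, Cd3g, Ly6g, Cd79a, Ms4a1 and S100a9 stayed at 0 to 8.45 (Cd3e, Cd3g and Ly6g at 0 in 22 of 24 libraries each) and S100a8 at 0 to 17.5, but Itgam was at 11.9 to 39.9 and Nkg7 at 96.8 to 354.

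Among the 33 genes the level per length was highest for Ldha. Its median over the 14 PBS libraries was 280.1 normalized counts per kb of principal transcript (lowest 223, highest 441). Tkt, the transketolase of the pentose phosphate pathway, followed at 194 (148 to 348). Next came Gpi1, the isomerase after hexokinase, at 158 per kb, transaldolase Taldo1 at 158, aldolase Aldoa at 152, pyruvate kinase Pkm at 149.9 and Gapdh at 124. The ranges of neighbours in this order overlapped, so only coarse steps in it exceed the spread. Lengths also mattered: by the union of exons Taldo1 had rank 2, Tkt 3 and Gapdh 13, and Ldha kept rank 1.

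**Figure D1:**
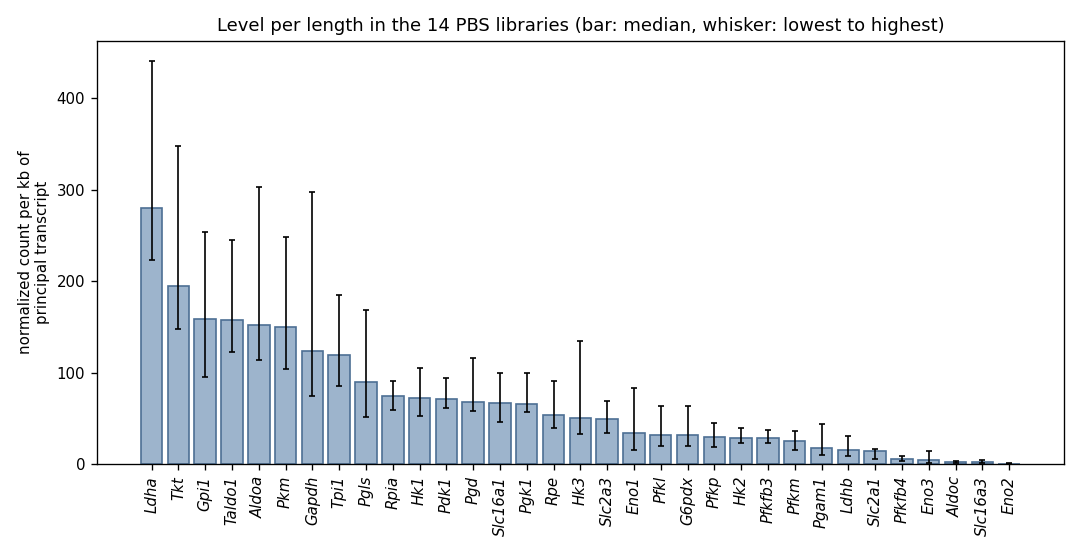
Level per length of the 33 genes in the 14 PBS libraries, in normalized counts per kb of principal transcript: bars are medians and whiskers run from the lowest to the highest library. Ldha stands at 280.1 and Tkt at 194, while the 5 genes at the right end, Pfkfb4, Eno3, Aldoc, Slc16a3 and Eno2, lie between 0.795 and 5.63.

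Most steps were served by 1 prevailing isoenzyme. Ldha, whose subunit favours making lactate, held 89.2% to 98.0% of the summed Ldha and Ldhb level per kb in PBS libraries and 93.6% to 98.3% with poly(I:C). Eno1 was at 33.8 per kb (PBS median), against 4.82 for Eno3, the muscle enolase, and Aldoa was at 152 against 2.54 for Aldoc. Eno2, the neuronal enolase, had 0 to 5 reads per library and did not pass the filter. Hexokinase was shared: in PBS libraries Hk1 held 34.2% to 55.2% of the summed level per kb of Hk1, Hk2 and Hk3, Hk2 12.4% to 24.6%, and Hk3, an isoenzyme of myeloid cells, 25.5% to 51.0%. Phosphofructokinase was shared too, with Pfkl at 32.3 per kb, Pfkp at 29.3 and Pfkm at 25.7. All 33 together made up 0.202% to 0.388% of a library's normalized total.

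Several of these genes have processed pseudogenes that could share reads. At 90% identity over at least 50% of their length, Gapdh has 172 such copies in GENCODE M21, of which 163 are in the table with a summed count of 89.3 to 287 per library. Ldha has 12, Pkm 8, Eno1 6, Aldoa 4, Pgk1 4, Pgam1 3, Tpi1 2, and Gpi1, Ldhb and Taldo1 1 each. How multi-mapped reads were treated is not given in the sources used here, so the counts of these 11 genes, and of Gapdh above all, are uncertain.

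Poly(I:C) was compared with PBS as the average over the 4 genotypes (10 and 14 libraries), on log2(normalized count + 1) in limma with p-values adjusted by Benjamini-Hochberg over all 12628 genes reaching a count of 10 in 2 or more libraries. Of the 32 members tested, 16 were called at 0.05, 14 higher and 2 lower. Over all genes 23.6% were called, 11.9% higher and 11.6% lower. The members' median log2 difference was 0.35, against 0.01 over all genes, and 25 of the 32 were positive. The mRNAs of 6 of the 7 pentose phosphate enzymes were called higher, as were those of Ldha and the lactate transporter Slc16a1. The called rises lay between 0.26 and 0.75 on the log2 scale, each less than a doubling. In bulk RNA a change in the number of cells of a kind and a change in RNA per cell cannot be told apart.

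The count of 16 became 9 without FancgKO_PolyIC replicate 6 (16.0% of all genes called), 9 without FancgKO_Mdm4Tg_PolyIC replicate 8 (12.3%), and 10 with reads thinned to the smallest library (13.2%), where Pfkp, Pfkfb3, Aldoc, Pgam1, Eno1 and Tkt did not pass. With no filter Slc2a3, Aldoc, Pfkp, Pfkfb3 and Tkt did not pass, nor did Pfkp and Pfkfb3 with Xist as a covariate or Pfkfb3 by DESeq2. Sizes moved too when libraries sharing a replicate number were fitted as a block. Eno1 then stood at 0.44 (0.68 unblocked), Hk3 at 0.54 (0.75), Tkt at 0.30 (0.46) and Gapdh at 0.31 (0.53). Of the 16 called members, Slc16a1, Slc2a3 and Aldoc grew in size, to 0.75, -0.49 and -0.80. The other called members became smaller. The part of the title ending (described below) in these shifts was not tested.

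**Figure D2:**
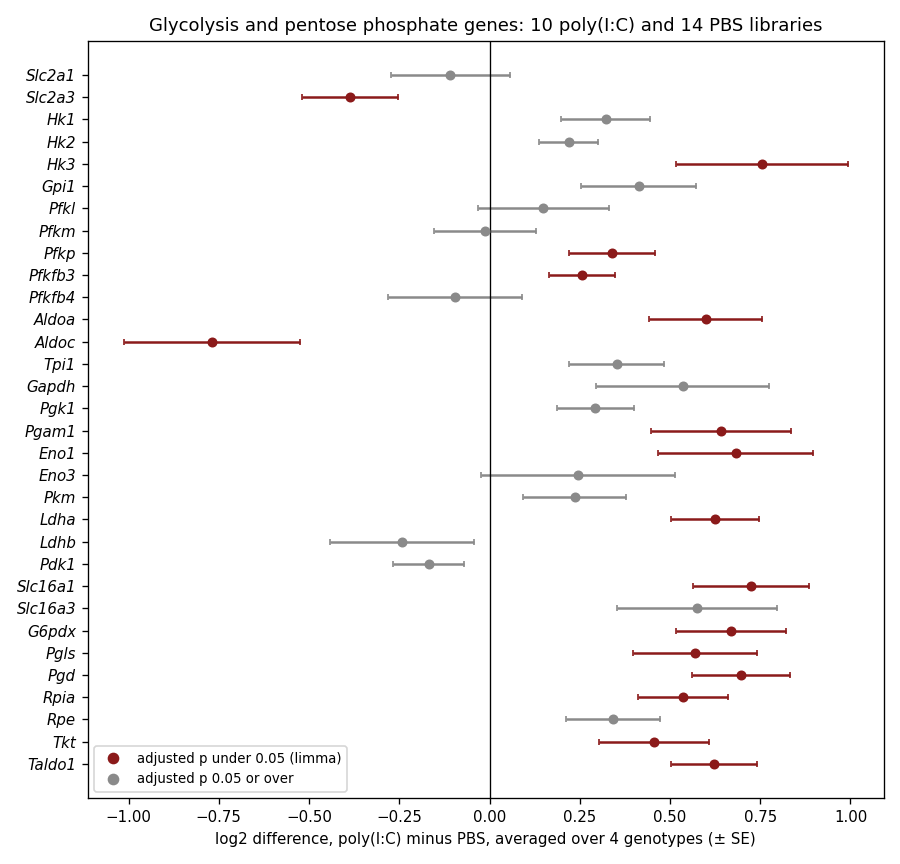
Log2 difference, poly(I:C) minus PBS averaged over 4 genotypes, for the 32 tested genes in pathway order from glucose uptake (top) to the pentose phosphate pathway (bottom); points are estimates and bars their SE. The 16 dark points passed (14 to the right of 0, and Slc2a3 and Aldoc to the left).

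Neither of the 2 glucose transporters among the 33 was called higher. Slc2a3 (chr6:122727809-122801640, minus strand; GENCODE M21 on GRCm38, as all gene positions here), a high-affinity glucose transporter, had normalized counts with PBS of 177, 177, 269 and 240.4 in WT, 169, 169.5, 136 and 235 in FancgKO, 175, 275 and 213 in Mdm4Tg, and 175, 231 and 245 in FancgKO_Mdm4Tg. With poly(I:C) it had 162, 159.7 and 133 in WT, 127, 226 and 141 in FancgKO, 172 and 139 in Mdm4Tg, and 217 and 115 in FancgKO_Mdm4Tg. The ranges overlapped, but 8 of 10 poly(I:C) libraries lay below the PBS median, and 3 below every PBS library. Slc2a3 fell by 0.39 ± 0.13 (SE; limma adjusted p = 0.0380). The call was lost without any 1 of WT_PBS replicates 7 and 8, WT_PolyIC replicates 6 and 8, FancgKO_PBS replicate 7, FancgKO_PolyIC replicates 6 and 8, Mdm4Tg_PBS replicates 7 and 8, Mdm4Tg_PolyIC replicate 8, FancgKO_Mdm4Tg_PBS replicates 7 and 8 and FancgKO_Mdm4Tg_PolyIC replicate 8, over a range of -0.50 to -0.27, and also with TMM scaling and with no filter on low counts. Slc2a1, the general glucose transporter, was at -0.11 ± 0.16 (limma adjusted p = 0.659). Outside the 33, the low-count transporters Slc2a6 and Slc2a8, named after their values were seen, were at 1.02 ± 0.44 and 0.56 ± 0.38 (limma adjusted p = 0.0936 and 0.292).

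At the first step, group means of Hk3 (chr13:55005985-55021385, minus strand), with PBS and poly(I:C), were 203 ± 117 and 338 ± 116 in WT, 265 ± 132 and 351 ± 116 in FancgKO, 149.9 ± 54.4 and 263 ± 123 in Mdm4Tg, and 171 ± 76.4 and 309 ± 115 in FancgKO_Mdm4Tg (± SD; n = 4 and 3, 4 and 3, 3 and 2, 3 and 2, here and below). All 10 poly(I:C) libraries lay above the PBS median, but only 1 above every PBS library. Hk3 rose by 0.75 ± 0.24 (limma adjusted p = 0.0268); the call was lost without any 1 of FancgKO_PolyIC replicate 6, Mdm4Tg_PolyIC replicate 7 and FancgKO_Mdm4Tg_PolyIC replicate 7. Hk1 at 0.32 ± 0.12 and Hk2 at 0.22 ± 0.08 did not pass (limma adjusted p = 0.0606 and 0.0527), nor did Gpi1 at 0.41 ± 0.16 (0.0622).

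The committed step showed smaller differences. Pfkp (chr13:6579768-6648777, minus strand), the platelet-type phosphofructokinase, had means of 111 ± 34.4 and 151 ± 16.0 in WT, 149 ± 27.8 and 174 ± 38.3 in FancgKO, 121 ± 16.2 and 143 ± 28.7 in Mdm4Tg, and 117 ± 27.7 and 153 ± 9.38 in FancgKO_Mdm4Tg. Pfkfb3 (chr2:11471433-11554077, minus strand), which makes the allosteric activator of phosphofructokinase, had means of 144 ± 32.8 and 156 ± 11.2 in WT, 142 ± 18.2 and 174 ± 22.9 in FancgKO, 136 ± 8.87 and 147 ± 14.2 in Mdm4Tg, and 123 ± 14.6 and 172 ± 28.2 in FancgKO_Mdm4Tg. In both genes all 10 poly(I:C) libraries exceeded the PBS median while the ranges overlapped. They rose by 0.34 ± 0.12 and 0.26 ± 0.09 (limma adjusted p = 0.0424 and 0.0462), and both calls were close to the threshold. Pfkp lost it without any 1 of WT_PBS replicates 2, 7 and 8, WT_PolyIC replicates 6 and 8, FancgKO_PBS replicates 2, 4 and 7, FancgKO_PolyIC replicate 6, Mdm4Tg_PBS replicates 2 and 8, Mdm4Tg_PolyIC replicate 7, FancgKO_Mdm4Tg_PBS replicate 8 and FancgKO_Mdm4Tg_PolyIC replicates 7 and 8, and Pfkfb3 without any 1 of WT_PBS replicates 2 and 8, WT_PolyIC replicates 6, 7 and 8, FancgKO_PBS replicates 4 and 7, FancgKO_PolyIC replicates 6 and 8, Mdm4Tg_PBS replicates 2, 7 and 8, Mdm4Tg_PolyIC replicates 7 and 8, FancgKO_Mdm4Tg_PBS replicates 2 and 8 and FancgKO_Mdm4Tg_PolyIC replicates 7 and 8. Pfkl, the liver type, was at 0.15 ± 0.18, Pfkm, the muscle type, at -0.01 ± 0.14 and Pfkfb4 at -0.10 ± 0.19 (limma adjusted p = 0.572, 0.960 and 0.731).

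Aldoa (chr7:126795234-126800751, minus strand), the main aldolase, had means of 282 ± 99.0 and 391 ± 34.9 in WT, 320.0 ± 126 and 421 ± 143 in FancgKO, 221 ± 53.5 and 347 ± 53.0 in Mdm4Tg, and 229 ± 48.5 and 385 ± 8.35 in FancgKO_Mdm4Tg. It rose by 0.60 ± 0.16 (limma adjusted p = 0.00953), and all 10 poly(I:C) libraries exceeded the PBS median. Aldoc (chr11:78322968-78327781, plus strand), the brain-type aldolase, was barely detected, with means of 9.02 ± 1.72 and 4.00 ± 0.508 in WT, 6.87 ± 2.87 and 4.80 ± 2.46 in FancgKO, 6.30 ± 0.417 and 2.90 ± 0.617 in Mdm4Tg, and 7.45 ± 4.37 and 3.79 ± 1.97 in FancgKO_Mdm4Tg and 1 to 15 reads per library. Aldoc fell by 0.77 ± 0.24 (limma adjusted p = 0.0277), a call lost without any 1 of FancgKO_PolyIC replicate 6, Mdm4Tg_PolyIC replicate 8 and FancgKO_Mdm4Tg_PolyIC replicate 7. Triose phosphate isomerase Tpi1 was at 0.35 ± 0.13 (limma adjusted p = 0.0536).

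In lower glycolysis Gapdh, the glyceraldehyde phosphate dehydrogenase, had PBS counts of 151, 423, 284 and 121 in WT, 121, 201, 384 and 359 in FancgKO, 118, 246 and 127 in Mdm4Tg, and 106, 285 and 131 in FancgKO_Mdm4Tg. With poly(I:C) it had 353, 302 and 237 in WT, 431, 307 and 219.6 in FancgKO, 328 and 168 in Mdm4Tg, and 317 and 225 in FancgKO_Mdm4Tg. PBS libraries alone spanned the whole range but for 1 poly(I:C) library, and Gapdh did not pass (0.53 ± 0.24; limma adjusted p = 0.107). Pgam1 (chr19:41911923-41918660, plus strand), the phosphoglycerate mutase, had means of 48.6 ± 16.7 and 58.2 ± 4.74 in WT, 49.0 ± 24.4 and 68.4 ± 25.5 in FancgKO, 27.5 ± 8.53 and 55.3 ± 0.747 in Mdm4Tg, and 37.2 ± 14.1 and 57.8 ± 12.3 in FancgKO_Mdm4Tg. Eno1 (chr4:150236721-150248879, plus strand), the main enolase, had means of 94.5 ± 46.4 and 137 ± 25.2 in WT, 107 ± 49.0 and 140.1 ± 49.7 in FancgKO, 75.9 ± 16.0 and 111 ± 25.4 in Mdm4Tg, and 69.3 ± 43.1 and 133 ± 20.5 in FancgKO_Mdm4Tg. Pgam1 rose by 0.64 ± 0.19 and Eno1 by 0.68 ± 0.22 (limma adjusted p = 0.0216 and 0.0269), with all 10 poly(I:C) libraries above the PBS median in each. For Pgam1 this did not hold among the titles ending in d (described below). There 2 of 6 poly(I:C) libraries lay above the PBS median of that ending and 4 below. In the 9 pairs of the same genotype and number Pgam1 was higher in 5 and lower in 4, and did not pass (limma adjusted p = 0.0758). Pgam1 also lost its call without FancgKO_Mdm4Tg_PolyIC replicate 8, and Eno1 without any 1 of FancgKO_PolyIC replicate 6, Mdm4Tg_PolyIC replicate 7 and FancgKO_Mdm4Tg_PolyIC replicates 7 and 8. Phosphoglycerate kinase Pgk1 was at 0.29 ± 0.11, Pkm at 0.24 ± 0.14 and Eno3 at 0.24 ± 0.27 (limma adjusted p = 0.0509, 0.232 and 0.528).

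Of Ldha, Ldhb and Pdk1, which act on pyruvate or its fate, Ldha was called. Ldha (chr7:46841475-46855627, plus strand) had PBS counts of 446, 775, 520.1 and 398 in WT, 453, 553, 779 and 768 in FancgKO, 395, 621 and 446 in Mdm4Tg, and 469, 548 and 452 in FancgKO_Mdm4Tg. Its poly(I:C) counts were 905, 668 and 945 in WT, 1019, 679 and 790.1 in FancgKO, 769.7 and 756 in Mdm4Tg, and 732 and 921 in FancgKO_Mdm4Tg. The lowest poly(I:C) library lay above 11 of 14 PBS libraries and 5 of 10 lay above every one. Ldha rose by 0.62 ± 0.12 (limma adjusted p = 0.00158), called in all 24 fits that leave out 1 library. Ldhb, the other subunit, was at -0.24 ± 0.20 and Pdk1, which holds back pyruvate dehydrogenase, at -0.17 ± 0.10 (limma adjusted p = 0.383 and 0.213).

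Slc16a1 (chr3:104638668-104658462, plus strand), a proton-coupled lactate transporter, had PBS counts of 292, 358, 206 and 280.0 in WT, 362, 361, 418 and 301 in FancgKO, 297, 248 and 294 in Mdm4Tg, and 440.2, 238 and 415 in FancgKO_Mdm4Tg. With poly(I:C) it had 572, 333 and 749 in WT, 575, 349.5 and 662 in FancgKO, 426 and 576 in Mdm4Tg, and 362 and 849 in FancgKO_Mdm4Tg. The 4 poly(I:C) libraries numbered 8, last in each genotype, were the highest of all, and 6 of 10 poly(I:C) libraries exceeded every PBS library. Slc16a1 rose by 0.72 ± 0.16 (limma adjusted p = 0.00369), in all 24 fits without 1 library and in all 15 other settings tried, among them edgeR, DESeq2 and each title ending described below. Slc16a3, the low-affinity lactate exporter of glycolytic cells, had 3 to 38 reads and was at 0.58 ± 0.22 (limma adjusted p = 0.0624).

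In the oxidative arm of the pentose phosphate pathway all 3 enzymes rose. G6pdx (chrX:74409483-74429194, minus strand), glucose phosphate dehydrogenase, the entry step, had means of 95.1 ± 41.3 and 148 ± 12.5 in WT, 118 ± 40.9 and 159 ± 37.4 in FancgKO, 81.6 ± 5.31 and 127 ± 7.92 in Mdm4Tg, and 72.4 ± 21.8 and 129.5 ± 22.2 in FancgKO_Mdm4Tg. Pgls (chr8:71592176-71601092, plus strand), the lactonase, had means of 88.5 ± 43.5 and 130.0 ± 38.8 in WT, 99.4 ± 40.5 and 119 ± 25.5 in FancgKO, 65.9 ± 5.61 and 115 ± 7.17 in Mdm4Tg, and 85.8 ± 11.2 and 122 ± 10.1 in FancgKO_Mdm4Tg. Both had all 10 poly(I:C) libraries above the PBS median, and rose by 0.67 ± 0.15 and 0.57 ± 0.17 (limma adjusted p = 0.00447 and 0.0212); Pgls lost its call without FancgKO_Mdm4Tg_PolyIC replicate 8. Pgd (chr4:149149991-149166771, minus strand), phosphogluconate dehydrogenase, had PBS counts of 129.7, 242, 145 and 137 in WT, 141, 155, 259 and 199 in FancgKO, 129, 175 and 136 in Mdm4Tg, and 156, 185 and 145 in FancgKO_Mdm4Tg. Its poly(I:C) counts were 305, 243 and 296 in WT, 401, 186 and 263 in FancgKO, 228 and 233 in Mdm4Tg, and 223 and 332 in FancgKO_Mdm4Tg. Of the 10, 5 exceeded every PBS library, and Pgd rose by 0.70 ± 0.14 (limma adjusted p = 0.00158). G6pdx and Pgk1 lie on the X chromosome, and 6 libraries had an Xist count over 300 (2 WT and 2 FancgKO with poly(I:C), 2 FancgKO with PBS). With Xist as a covariate G6pdx was at 0.60 (limma adjusted p = 0.0056) and Pgk1 at 0.27 (0.0691).

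In the non-oxidative arm 3 of 4 enzymes were called higher. Rpia (chr6:70765720-70792232, minus strand), which makes ribose phosphate, had means of 143 ± 15.3 and 198 ± 42.3 in WT, 134 ± 17.8 and 194 ± 51.3 in FancgKO, 127 ± 24.9 and 185 ± 49.1 in Mdm4Tg, and 139 ± 26.3 and 227 ± 95.8 in FancgKO_Mdm4Tg. It rose by 0.54 ± 0.12 (limma adjusted p = 0.00475), and 6 of 10 poly(I:C) libraries exceeded every PBS library. Tkt (chr14:30548359-30574720, plus strand), transketolase, had means of 728 ± 251 and 959 ± 189 in WT, 835 ± 299 and 1008 ± 235 in FancgKO, 604 ± 148 and 842 ± 140.3 in Mdm4Tg, and 599 ± 173 and 861 ± 31.3 in FancgKO_Mdm4Tg and rose by 0.46 ± 0.15 (limma adjusted p = 0.0338). Its call was lost without any 1 of WT_PBS replicates 2 and 8, WT_PolyIC replicate 6, FancgKO_PBS replicate 4, FancgKO_PolyIC replicate 6, Mdm4Tg_PBS replicates 2 and 8, Mdm4Tg_PolyIC replicate 7, FancgKO_Mdm4Tg_PBS replicates 2 and 8 and FancgKO_Mdm4Tg_PolyIC replicates 7 and 8, over a range of 0.40 to 0.51. Taldo1 (chr7:141392199-141402968, plus strand), transaldolase, had PBS counts of 172, 302, 222 and 185 in WT, 164, 207, 297 and 229 in FancgKO, 165, 181 and 150.3 in Mdm4Tg, and 231, 198 and 190.4 in FancgKO_Mdm4Tg. After poly(I:C) these were 365, 291 and 343 in WT, 414, 262 and 332 in FancgKO, 245 and 306 in Mdm4Tg, and 231 and 393 in FancgKO_Mdm4Tg. Here too 6 of 10 exceeded every PBS library, and Taldo1 rose by 0.62 ± 0.12 (limma adjusted p = 0.00134). Rpe, the epimerase, was at 0.34 ± 0.13 (limma adjusted p = 0.0589). It was called higher in 9 of 15 other settings and in 4 of 24 fits that leave out 1 library.

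**Figure D3:**
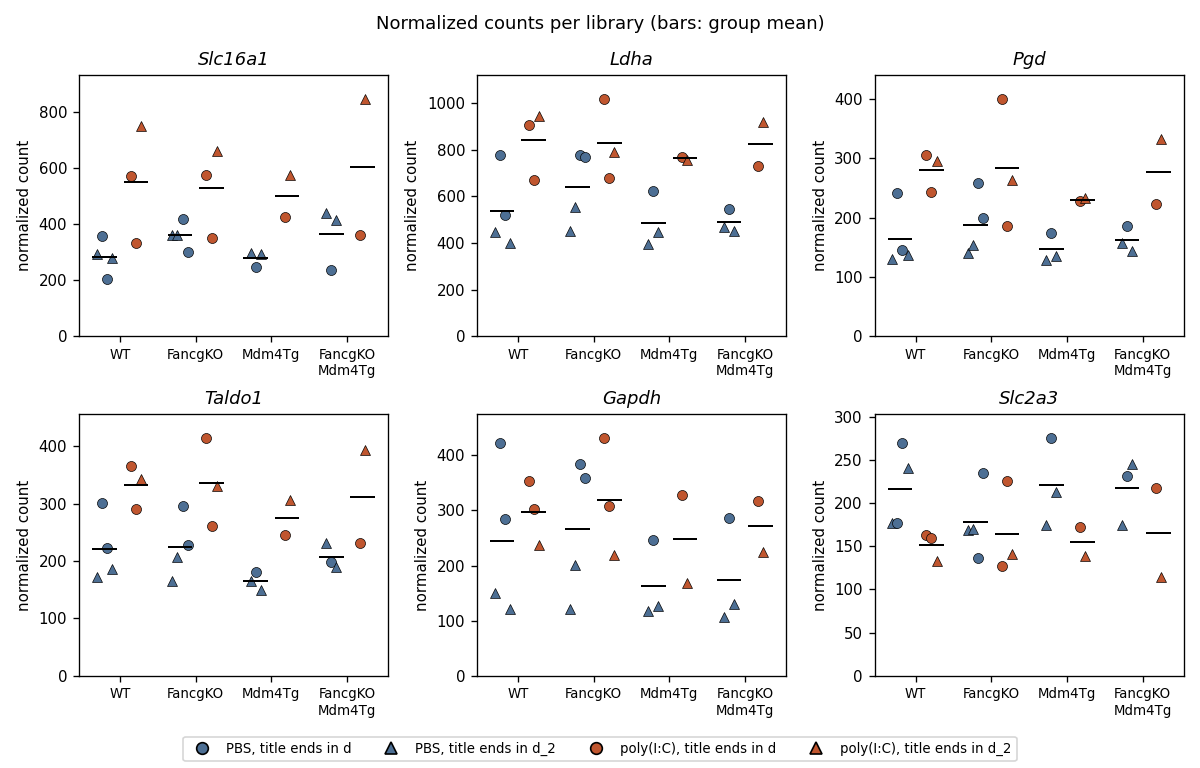
Normalized count per library of Slc16a1, Ldha, Pgd, Taldo1, Gapdh and Slc2a3 by genotype and treatment; each point is 1 library, its shape the title ending, and bars are group means. Slc16a1 spans 206 to 440.2 under PBS, against 333 to 849 under poly(I:C), and for Gapdh the PBS libraries split by ending, at 246 to 423 (d) and 106 to 201 (d_2).

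The libraries differ in a second way. The titles of 12 end in d (numbers 6 and 7) and those of the other 12 in d_2 (numbers 2, 4 and 8); what the ending stands for is not given in the labels. PBS libraries fell 6 to d and 8 to d_2, poly(I:C) libraries 6 and 4. In 1 limma fit with genotype, ending and a separate response for each ending, chosen after the values were seen, 20 of 32 members differed between endings among PBS libraries, against 39.8% of all genes. Of these, 18 were higher in d and 2 lower. Gapdh differed most, by 1.25 ± 0.11 (limma adjusted p = 6.68e-09), then Hk3 by 1.16 ± 0.12, Eno1 by 1.06 ± 0.14, Tkt by 0.77 ± 0.09 and Aldoa by 0.76 ± 0.11. Pdk1 was lower at -0.30 ± 0.07 and Rpe at -0.35 ± 0.11 (limma adjusted p = 0.00108 and 0.0161). With PBS, 7 members (Gapdh, Hk3, Eno1, Tkt, Aldoa, Gpi1 and Pkm) lay higher in every d library than in any d_2 library, where 5.22% of all genes did so, and Pdk1 lay lower, as did 4.83%.

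Estimated within each ending, the members' median response was larger in d_2. That response and the difference between endings in PBS share the 8 PBS libraries of d_2, so they are not independent results. In d_2, 20 members were called, 19 higher and 1 lower (40.8% of all genes), with a median of 0.50 (0.01 over all genes). In d only Slc16a1 was called, at 0.57 ± 0.15 (limma adjusted p = 0.0456; 2.26% of all genes), and the median was 0.18 (0.01). Slc16a1 in d_2 was at 1.05 ± 0.16, G6pdx at 0.99 ± 0.16, Pgd at 0.98 ± 0.15, Pgam1 at 0.93 ± 0.23, Ldha at 0.92 ± 0.11, Taldo1 at 0.91 ± 0.13 and Rpia at 0.90 ± 0.13, while Slc2a3 fell by 0.55 ± 0.16 (limma adjusted p = 0.00667). The difference between the endings passed for Ldha (0.66 ± 0.15; limma adjusted p = 0.0341) and Rpia (0.66 ± 0.17; 0.0449), 2 of 32 members, against 2.36% of all genes. For the other members it was not shown.

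Ldha ran from 395 to 553 under PBS, against 756 to 945 under poly(I:C), in d_2, and from 520.1 to 779 and 668 to 1019 in d. Rpia ran from 108 to 167 and 219.6 to 295 in d_2, and from 115 to 165 and 139 to 218 in d. So both were apart in d_2 and overlapped in d. Within d_2, 14 members lay higher in all 4 poly(I:C) libraries than in all 8 PBS libraries, where 13.6% of genes did, and Slc2a3 lay lower, as did 11.1%. Within d, and over all 24 libraries, no member separated the treatments; few genes did, 0.436% upwards and 0.586% downwards in d and 0.0475% and 0.0238% over all libraries. All 4 poly(I:C) libraries of d_2 carry the number 8 and are the deepest. The 6 libraries with an Xist count over 300 all end in d. Whether depth or Xist has a part in the difference was not tested within the endings.

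**Figure D4:**
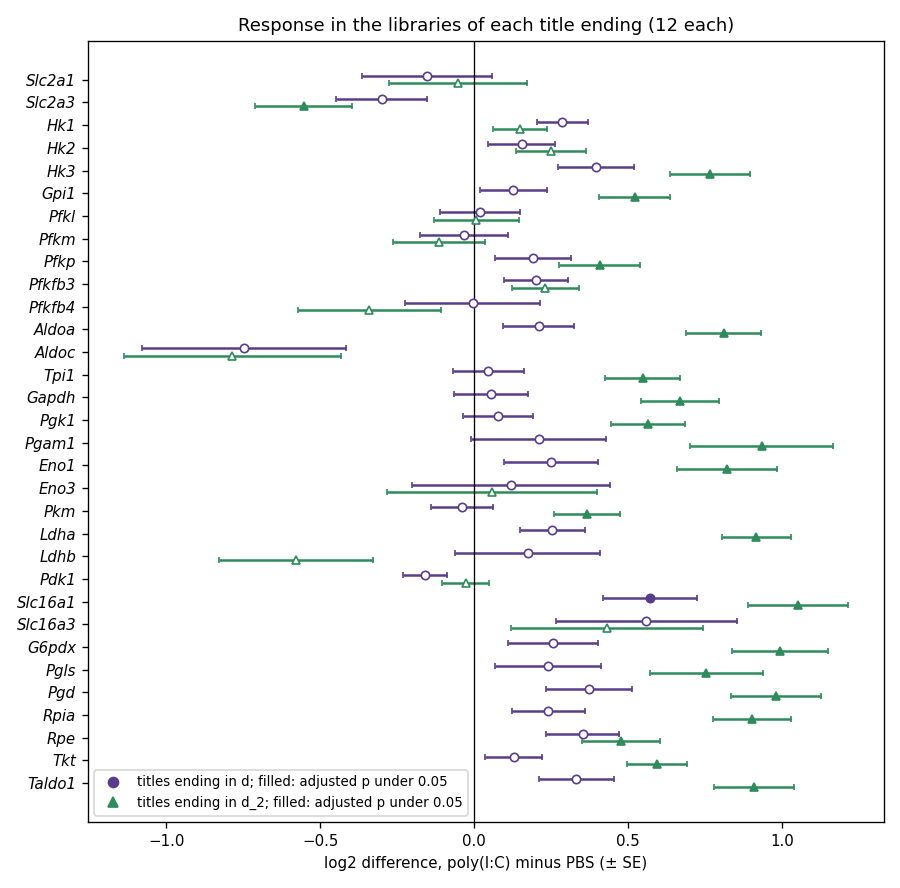
Log2 difference, poly(I:C) minus PBS, estimated separately in the 12 libraries with titles ending in d (circles) and the 12 ending in d_2 (triangles); bars are SE and filled symbols passed. In d_2 20 genes passed and in d only Slc16a1.

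Markers of other progenitors moved with both splits. All 8 myeloid progenitor markers (Mpo, Elane, Prtn3, Ctsg, Ms4a3, Cebpe, Fcgr3, Ly6c2) were called higher with poly(I:C) on average, with a median log2 difference of 2.44. Their summed count was 1436 to 3286 in PBS d_2 libraries, 3686 to 13814 in PBS d, 8584 to 13873 in poly(I:C) d_2 and 5769 to 23042 in poly(I:C) d, and between endings in PBS 7 of 8 were called higher in d (median 1.53). With poly(I:C), erythroid markers were higher in 5 of 6 (median 1.57, with Hba-a1 at 0 in 13 libraries), and dividing-cell markers in 3 of 5 (median 0.30). Stem cell markers were lower in 7 of 8 (median -0.998) and lymphoid progenitor markers in 2 of 5. Of 4 surface marker genes (Kit, Ly6a, Cd34 and Flt3), of which only Kit and Ly6a belong to the gate, 3 were lower (median -0.36). Of 3 mature lineage markers that passed the filter 2 were higher (median 0.69). Between endings in PBS, all 5 lymphoid progenitor markers were called lower in d (median -1.39). So were 3 of the 4 surface marker genes and 1 of 8 stem cell markers. Called higher in d were 4 of 6 erythroid, 2 of 5 dividing-cell and 1 of 3 mature lineage markers. The 33 genes summed to 4825 to 5969 in PBS d_2 libraries, 6123 to 8399 in PBS d, 6787 to 8082 in poly(I:C) d_2 and 7391 to 10206 in poly(I:C) d. The PBS d_2 libraries were thus lowest in both sums, and the PBS d libraries overlapped those with poly(I:C) in both. The part of myeloid or erythroid progenitors in the glycolytic differences was not tested.

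**Figure D5:**
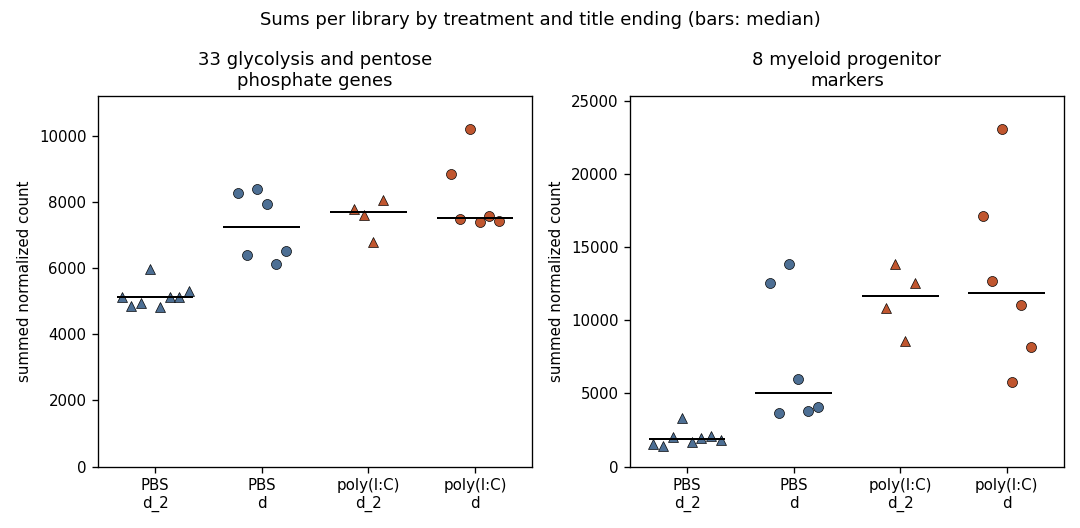
Summed normalized count per library of the 33 genes (left) and of 8 myeloid progenitor markers (right), by treatment and title ending; points are libraries and bars medians. In both panels the PBS d_2 libraries are lowest, at 4825 to 5969 and at 1436 to 3286.

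By genotype the response to poly(I:C) was likewise mostly positive, but no member passed. In each of the 4 genotypes 26 of 32 members were positive (49.9% to 52.4% of all genes), with medians of 0.37 in WT, 0.31 in FancgKO, 0.45 in Mdm4Tg and 0.49 in FancgKO_Mdm4Tg. The WT median became 0.06 with Xist as a covariate, and the FancgKO median 0.12 without FancgKO_PBS replicate 2 and 0.17 without FancgKO_PolyIC replicate 6. At an unadjusted p under 0.05 there were 8, 3, 8 and 8 members, or 25.0%, 9.38%, 25.0% and 25.0%, against 14.9%, 7.24%, 12.7% and 8.57% of all genes; in FancgKO the share was near that of all genes. By edgeR and DESeq2 there were likewise 0 called members in each. Over all genes limma called 0.0158% in WT and 0% in the other 3. In WT the smallest p-values were those of Pgd at 0.82 ± 0.25 (limma adjusted p = 0.133), Slc16a1 at 0.91 ± 0.29 (limma adjusted p = 0.153) and Ldha at 0.68 ± 0.22 (limma adjusted p = 0.155). In FancgKO they were those of Taldo1 at 0.59 ± 0.22 (limma adjusted p = 0.682), Rpia at 0.51 ± 0.22 (limma adjusted p = 0.682) and Pgd at 0.56 ± 0.25 (limma adjusted p = 0.682). In Mdm4Tg they were Taldo1 at 0.73 ± 0.26 (limma adjusted p = 0.293), Hk2 at 0.45 ± 0.18 (limma adjusted p = 0.316) and Ldha at 0.67 ± 0.26 (limma adjusted p = 0.320). In FancgKO_Mdm4Tg they were Ldha at 0.75 ± 0.26 (limma adjusted p = 0.494), G6pdx at 0.86 ± 0.33 (limma adjusted p = 0.516) and Pgd at 0.75 ± 0.29 (limma adjusted p = 0.528). On simulated data of this size the WT fit found 9 of 100 genes changed by a log2 of 0.5 and 67 of 100 changed by 1, whereas the averaged fit found 62 and 93.

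In WT the replicate numbers were taken to pair the libraries, which the labels do not state. The Xist count of replicates 6 and 7 was 24.8 and 3.34 with PBS, against 5943 and 20207 with poly(I:C). The part of this difference in the calls was not tested. With the number as a block 7 members were called, 6 higher and 1 lower (6.88% of all genes). These were Slc16a1 at 0.93 ± 0.15 (limma adjusted p = 0.00140), Pgd at 0.71 ± 0.16 (limma adjusted p = 0.0109), Hk3 at 0.64 ± 0.16 (limma adjusted p = 0.0154), Ldha at 0.57 ± 0.16 (limma adjusted p = 0.0300), Slc2a3 at -0.56 ± 0.16 (limma adjusted p = 0.0340), Taldo1 at 0.55 ± 0.16 (limma adjusted p = 0.0380) and Rpe at 0.46 ± 0.13 (limma adjusted p = 0.0418). Without the block, leaving out WT_PBS replicate 6 gave 4 members in place of 0, and raised the share of all genes from 0.0158% to 4.12%.

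Whether genotype alters the response was asked of the difference between responses; these differences, and the comparisons of genotypes below, share control samples. No member passed for FancgKO against WT, Mdm4Tg against WT or FancgKO_Mdm4Tg against FancgKO (0% of all genes in each by limma, and 0 members by edgeR and DESeq2). No member had an unadjusted p under 0.05 either, where 1.01%, 0.483% and 0.808% of all genes had one. The medians were not stable: for FancgKO against WT -0.09, but 0.21 with Xist as a covariate and -0.27 to 0.04 when 1 library was left out; for Mdm4Tg against WT -0.14 to 0.13 when 1 was left out; and for FancgKO_Mdm4Tg against FancgKO 0.16, but 0.03 with thinned reads. The smallest p-values for FancgKO against WT were those of Hk2 at -0.35 ± 0.21 (limma adjusted p = 1.000), Eno3 at -0.95 ± 0.69 (limma adjusted p = 1.000) and Slc2a3 at 0.36 ± 0.34 (limma adjusted p = 1.000). For Mdm4Tg against WT they were Pgam1 at 0.72 ± 0.55 (limma adjusted p = 1.000), Slc2a1 at -0.40 ± 0.46 (limma adjusted p = 1.000) and Hk1 at 0.30 ± 0.35 (limma adjusted p = 1.000). For FancgKO_Mdm4Tg against FancgKO they were Eno3 at 1.28 ± 0.76 (limma adjusted p = 1.000), Slc2a1 at -0.66 ± 0.46 (limma adjusted p = 1.000) and Pfkm at -0.48 ± 0.40 (limma adjusted p = 1.000). The standard errors of the differences named here ran from 0.21 for Hk2 to 0.76 for Eno3. The called averaged rises lay between 0.26 and 0.75.

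Loss of Fancg by itself gave no called member with PBS (0% of all genes; 2 members at an unadjusted p under 0.05, 0 by edgeR and DESeq2). At that p stood 3.94% of all genes. The median was 0.12 with 21 of 32 positive, but it turned to -0.09 with Xist as a covariate and to -0.04, -0.03 and -0.01 without WT_PBS replicate 8, FancgKO_PBS replicate 6 and FancgKO_PBS replicate 7, and was 0.34 without FancgKO_PBS replicate 2. Hk2, the inducible hexokinase, had PBS counts of 141, 165, 151 and 127 in WT and 186, 197, 218 and 179.7 in FancgKO, which did not overlap. Of the 32 members it alone was higher in every FancgKO than every WT library, as were 0.752% of all genes, and none was lower throughout (1.08%). It was at 0.42 ± 0.14 (limma adjusted p = 0.999), followed by Pfkp at 0.46 ± 0.20 (limma adjusted p = 0.999) and Ldhb at -0.56 ± 0.33 (limma adjusted p = 0.999). On simulated data of this size this comparison found 9 of 100 genes changed by a log2 of 0.5 and 69 of 100 changed by 1. With poly(I:C) no member was called (0% of all genes), and none reached an unadjusted p under 0.05, where 0.364% of all genes did. Hk2 counts overlapped (210.3, 145 and 196 in WT, 229, 161 and 187 in FancgKO). The smallest p-values were those of Slc16a3 at -0.45 ± 0.43 (limma adjusted p = 1.00), Pkm at 0.25 ± 0.28 (limma adjusted p = 1.00) and Ldhb at -0.33 ± 0.39 (limma adjusted p = 1.00).

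The Mdm4 transgene likewise gave no called member on either background. Mdm4 itself was the 1 gene called by limma in each of its comparisons (0.00792% of all genes). Against FancgKO with PBS, FancgKO_Mdm4Tg had 25 of 32 members negative, with a median of -0.22 (-0.03 with Xist as a covariate, -0.41 without FancgKO_PBS replicate 2) and 2 members at an unadjusted p under 0.05 (4.47% of all genes). G6pdx was at -0.66 ± 0.28 (limma adjusted p = 0.931), Eno3 at -1.05 ± 0.49 (limma adjusted p = 0.931) and Eno1 at -0.71 ± 0.39 (limma adjusted p = 0.931). Against WT with PBS, FancgKO_Mdm4Tg had 22 negative (median -0.16, but -0.03 with the replicate number as a block). At an unadjusted p under 0.05 stood 0 members and 2.53% of all genes. Hk2 was at 0.20 ± 0.15 (limma adjusted p = 1.000), Pfkfb4 at -0.44 ± 0.34 (limma adjusted p = 1.000) and Eno1 at -0.51 ± 0.39 (limma adjusted p = 1.000). Mdm4Tg against WT had 26 negative (median -0.17, but -0.04 with the block and -0.01 without WT_PBS replicate 6; 2 at an unadjusted p under 0.05, and 2.51% of all genes), with Pgam1 at -0.79 ± 0.35 (limma adjusted p = 0.999), Slc16a3 at -0.85 ± 0.40 (limma adjusted p = 0.999) and Taldo1 at -0.38 ± 0.22 (limma adjusted p = 0.999). With poly(I:C), FancgKO_Mdm4Tg against FancgKO had a median of -0.09, which turned to 0.02 with the block, 0.11 with Xist as a covariate and 0.04 without FancgKO_PolyIC replicate 6. Here 0 members stood at an unadjusted p under 0.05, against 0.198% of all genes. Slc2a1 was at -0.52 ± 0.36 (limma adjusted p = 1.00), Pkm at -0.36 ± 0.31 (limma adjusted p = 1.00) and Gpi1 at -0.28 ± 0.35 (limma adjusted p = 1.00). In these 4 comparisons edgeR and DESeq2 called 0 members too. The transgenic PBS groups hold 1 d library of 3 and the others 2 of 4; with the ending as a covariate the 3 PBS medians were -0.19, -0.07 and -0.11, and no member passed.

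Genes of the pathway outside the 33 were read from 4 lists, for the averaged response, in which 23.6% of all genes were called (11.9% higher, 11.6% lower). Of 12 tested further isoenzymes and transporters 3 were called higher and 1 lower (median 0.25). Pklr, the liver and red cell pyruvate kinase, rose by 1.93 ± 0.51 (limma adjusted p = 0.0114; means 7.37 with PBS and 24.6 with poly(I:C)), Bsg, the chaperone of lactate transporters, by 0.45 ± 0.13 (limma adjusted p = 0.0210; means 157 with PBS and 210.0 with poly(I:C)), and ribokinase Rbks by 0.59 ± 0.17 (limma adjusted p = 0.0146; means 12.5 with PBS and 19.0 with poly(I:C)). Slc16a7, a high-affinity monocarboxylate carrier, fell: -0.36 ± 0.13 (limma adjusted p = 0.0440; means 144 with PBS and 112 with poly(I:C)). Of 14 genes of pyruvate entry and gluconeogenesis 1 was called (median 0.10), the pyruvate dehydrogenase subunit Dlat at 0.41 ± 0.09 (limma adjusted p = 0.00427; means 150.4 with PBS and 202 with poly(I:C)). The nearest others were Pdhx at 0.25, Dld at 0.24 and Pdha1 at 0.19 (limma adjusted p = 0.0800, 0.122 and 0.149).

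Genes of the branches that leave glycolysis were called higher in 6 of 15 (median 0.27), where 11.9% of all genes were. Tigar, a phosphatase that steers sugar into the pentose phosphate pathway, rose by 0.63 ± 0.18 (limma adjusted p = 0.0169; means 17.2 with PBS and 27.4 with poly(I:C)). Phosphoglucomutase Pgm1 rose by 0.44 ± 0.11 (limma adjusted p = 0.00640; means 88.6 with PBS and 119.5 with poly(I:C)) and glycogen synthase Gys1 by 0.43 ± 0.16 (limma adjusted p = 0.0486; means 49.0 with PBS and 66.3 with poly(I:C)). In serine synthesis Psat1 rose by 0.39 ± 0.10 (limma adjusted p = 0.0109; means 285 with PBS and 372 with poly(I:C)) and Shmt2, which takes serine on, by 0.37 ± 0.11 (limma adjusted p = 0.0222; means 182 with PBS and 232 with poly(I:C)). Prps1, which turns ribose phosphate into the nucleotide precursor, rose by 0.35 ± 0.10 (limma adjusted p = 0.0187; means 148 with PBS and 189 with poly(I:C)).

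Among 18 regulators 2 were called higher and 2 lower (median 0.05), a share near the 23.6% of all genes. Txnip, which restrains glucose uptake and is induced by glucose through Mlx and its partners, fell: -0.62 ± 0.11 (limma adjusted p = 8.81e-04; means 1059 with PBS and 680.2 with poly(I:C)). Prkaa2, a catalytic subunit of AMP-activated kinase, fell too: -1.01 ± 0.26 (limma adjusted p = 0.00914; means 20.3 with PBS and 8.99 with poly(I:C)). Mlx rose by 0.63 ± 0.14 (limma adjusted p = 0.00447; means 51.4 with PBS and 78.8 with poly(I:C)) and Myc by 0.34 ± 0.09 (limma adjusted p = 0.0132; means 681 with PBS and 859 with poly(I:C)). Hif1a, named after its value was seen because its core was searched above, was at -0.02 ± 0.12 (limma adjusted p = 0.920; means 309.7 with PBS and 307 with poly(I:C)).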

How the data were processed

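RNA-seq was made from polyadenylated RNA of sorted mouse LSK cells in 24 libraries, with the CATS kit, per the labels' protocols. The authors deposited 1 table of normalized counts (unit: signal); STAR and build mm10 are named in the submitters' processing notes, and the counter, its treatment of multi-mapped reads and the normalization tool are not given in the sources used here. Every column divided by its smallest step gave whole reads for 100% of values (tolerance 1e-06), at 807686 to 8229715 reads per library and normalized totals of 2336990 to 2667336. Precision at low counts is thus limited by the smaller libraries. Symbols came from the table for 16217 genes and from GENCODE M21 for 10006; 44 stayed unnamed. One gene of the marker lists is not reported here.

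Values were tested as log2(normalized count + 1), so differences of low genes are understated. Genes reaching 10 in 2 or more libraries entered the test (12628), and limma 3.58.1 with a trend (R 4.3.3) was fitted to 8 group means, with Benjamini-Hochberg adjustment at 0.05. Groups follow the titles. Alternatives were other pseudocounts, filters and scalings, a replicate block, the title ending or Xist as covariate, edgeR 4.0.16 and DESeq2 1.42.0 on the recovered reads, and leaving out each library. Numbers in the titles were taken to pair libraries where a comparison had 3 or more same-numbered pairs that all deviated together (r over 0.1). This held for the WT response (3 pairs, r 0.231 to 0.448), for the 4 comparisons of another genotype with WT (lowest r 0.218) and for the difference between the Mdm4Tg and WT responses. The fit was tested on simulated data. Pseudogenes were sought with blastn 2.17.0.

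The members and lists were chosen with earlier results of these data known. Members called in the averaged response are named with all groups; where none was called, the 3 with the smallest p; from other lists, called genes and the next smallest p.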

Additional observations from a re-analysis of the deposited data

Results flagged for a closer look

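Pgd in WT with PBS had 1 library far from the others, replicate 6 at a normalized count of 242, against 129.7, 145 and 137. Such a gap was looked for in all 32 tested members in both groups of 4 libraries, 64 sets in all, and chance alone gives it in about 1 set in 20. Leaving out that library raised the WT count of called members from 0 to 4, and the share of all genes called from 0.0158% to 4.12%.

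The response of Ldha to poly(I:C) was larger in libraries with titles ending in d_2 than in d by 0.66 (log2), and that of Rpia by 0.66, in limma's test of the difference itself (adjusted p = 0.0341 and 0.0449). The 4 poly(I:C) libraries of d_2 were also the 4 deepest, and the myeloid progenitor sums of the PBS libraries differed between endings (1436 to 3286 in d_2, 3686 to 13814 in d). The 6 libraries with an Xist count over 300 all ended in d. The part of depth, the myeloid sums or Xist in the difference was not tested.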

How the results depend on the processing

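The averaged response called 16 members (23.6% of all genes). With the replicate number as a block it called 23 (30.9%), with the block and TMM scaling together 25 (31.8%), with reads thinned to 807686 per library 10 (13.2%), in libraries ending in d alone 1 (2.26%) and in those ending in d_2 alone 20 (40.8%), so the share of all genes moved with the members' count; the cause was not tested. Leaving out 1 library gave 9 to 23, the 9 without FancgKO_PolyIC replicate 6 and without FancgKO_Mdm4Tg_PolyIC replicate 8. Other settings gave 11 (no filter, 8.67%) to 23 (title ending as covariate, 34.8%), with 21 by edgeR (28.7%) and 20 by DESeq2 (29.3%). In WT alone the count of 0 became 7 with the block (6.88%), 7 with the block and TMM scaling (7.14%), 2 with the title ending as covariate (2.77%), and 0 to 4 when 1 library was left out (4.12% at 4). In Mdm4Tg it became 3 with the block (4.85%) and 3 with the block and TMM scaling (4.56%), and in FancgKO_Mdm4Tg 1 (1.08%) and 1 (0.958%). The genotype comparisons, the differences between responses and the FancgKO response had 0 members in every setting run. Thinning, the ending-specific fits, the 9 same-number pairs (19 members) and the block with TMM scaling were chosen after the data were seen. No named member reversed direction where it was called. In the 5 other paired comparisons the block changed no call of a member. In the rest the numbers were not taken as pairing: there were fewer than 3 pairs, or a pair at 0.0528. Over all 61 same-numbered pairs the median correlation was 0.343, and libraries of another number with the same ending correlated too (median 0.243). Low counts of the smaller libraries limit Aldoc, Slc16a3 and Eno2.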
